A study of Mus musculus with 15 samples.

Results

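*Otop1*, *Nlrp6* and *Ncald* were 3 of the 16729 genes in the expression table of mouse endometrial organoids, and each had 1 row in it. They were chosen by the comparison of *Smad2/3* cKO + A83-01 with control + A83-01 organoids, in which they were the 3 genes past the thresholds, so their values in that comparison are given below as a description without a test. The organoids were three-dimensional cultures of uterine epithelial cells, and RNA was sequenced from 15 samples, each from 1 mouse. All mice carried the floxed alleles *Smad2*flox/flox and *Smad3*flox/flox. Control mice had no Cre, whereas *Smad2/3* cKO mice also had 1 *Ltf*-cre allele, which expresses Cre from the lactoferrin gene and acts in the uterine epithelium after exposure to estrogen. The cultures received the vehicle DMSO or A83-01 at 500 nM, an inhibitor of the type 1 receptors ALK4, ALK5 and ALK7. There were 3 control + vehicle samples and 4 of each other kind, named control + A83-01, *Smad2/3* cKO (with vehicle) and *Smad2/3* cKO + A83-01. The labels give no age. The methods name no step that removes cells in which Cre did not act.

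TGFβ family ligands bind pairs of receptor kinases, and the type 1 receptors blocked by A83-01 phosphorylate SMAD2 and SMAD3, which then enter the nucleus with SMAD4 and change transcription. *Otop1* encodes otopetrin 1, a proton channel known from sour taste receptor cells and from the formation of otoconia in the inner ear. *Nlrp6* encodes a NOD-like receptor that joins the adaptor ASC and caspase-1 in inflammasomes and is best known from the intestinal epithelium, where it has a role in mucus secretion by goblet cells. *Ncald* encodes neurocalcin delta, an EF-hand calcium sensor of the neuronal calcium sensor family that is abundant in the brain.

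In the GRCm38 annotation, *Otop1* (ENSMUSG00000051596) lies at chr5:38275972-38304217 on the plus strand and *Nlrp6* (ENSMUSG00000038745) at chr7:140920902-140929192 on the plus strand, and neither overlaps another annotated gene. *Ncald* (ENSMUSG00000051359) lies at chr15:37366175-37792570 on the minus strand and overlaps 11 annotated genes, of which only *Gm8668* had a row in the table, with a highest group mean of 5.48 normalized counts. RefSeq promoter windows in GRCm38.p6 were at hand for 2 of the 3 genes, and they are shown because both genes were higher where SMAD2/3 had been deleted. Capitals mark GTCTG on either strand, the short Smad binding element, here as its complement CAGAC. The *Otop1* window covers chr5:38277154-38277453 and the *Nlrp6* window chr7:140920652-140920951, both on the plus strand.
Otop1: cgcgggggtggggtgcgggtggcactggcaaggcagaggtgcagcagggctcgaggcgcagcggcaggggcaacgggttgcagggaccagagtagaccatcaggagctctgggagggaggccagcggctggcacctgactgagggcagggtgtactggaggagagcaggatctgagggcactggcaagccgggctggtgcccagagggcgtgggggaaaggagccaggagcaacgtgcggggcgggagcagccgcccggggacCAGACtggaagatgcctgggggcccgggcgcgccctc
Nlrp6: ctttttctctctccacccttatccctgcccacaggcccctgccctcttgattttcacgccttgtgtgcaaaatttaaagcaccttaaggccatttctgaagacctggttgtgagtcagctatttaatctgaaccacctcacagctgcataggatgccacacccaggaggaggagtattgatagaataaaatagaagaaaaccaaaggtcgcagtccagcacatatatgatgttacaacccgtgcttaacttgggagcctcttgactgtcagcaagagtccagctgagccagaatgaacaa
The *Otop1* window held 1 match, 14 bases after the RefSeq start of transcription used for that window, and the *Nlrp6* window held 0. The *Otop1* window lies inside the gene span given above, so this start is downstream of the first base of that span. GTCTG on either strand was present in 49.5% of the 32544 promoter windows, so 1 match in a window of this length is common. The palindromic element GTCTAGAC, which contains no GTCTG, was in 0.215% of windows and GGCGCC in 11.9%, and neither of these letter runs was in either window. GC content was 71.7% in the *Otop1* window and 46.7% in the *Nlrp6* window, against a median of 53.0% over all windows.

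Normalized counts (estimated read counts divided by 1 size factor per sample) summed to 20241771 to 24423127 per sample, and 14707 to 15649 genes were above 0. The epithelial markers *Epcam*, *Krt8* and *Krt18* were abundant in all groups, with *Epcam*, an epithelial adhesion molecule, at 23268 ± 1937 (SD, n = 3) in control + vehicle samples and 24265 ± 3024 (n = 4) after the deletion. The keratin genes had lower means after the deletion, at 17780 ± 8464 against 47559 ± 10872 for *Krt8* (limma adjusted p = 0.0124), 31023 ± 7668 against 50497 ± 11389 for *Krt18* (adjusted p = 0.0643) and 10479 ± 6290 against 34246 ± 8539 for *Krt19* (adjusted p = 0.0118), and none of these passed the thresholds described below. The epithelial marker *Pax8* had a higher mean after the deletion, at 8096 ± 1334 against 5082.5 ± 465, and did not pass either. The summed markers of stroma, smooth muscle, endothelium and of neurons and Schwann cells reached at most 194, 219, 27.6 and 21.8 in any sample. *Smad2* and *Smad3* were counted over the whole gene, so transcripts that lack the floxed exons were included. *Smad2* was at 1171 ± 149 in control + vehicle and at 875 ± 43.8 in *Smad2/3* cKO samples, and *Smad3* at 1624 ± 107 and 1576 ± 333, and neither passed the thresholds (limma adjusted p = 0.0656 and 0.827). Known targets of SMAD2/3 gave a check of the groups. *Fn1*, which encodes fibronectin, was at 3779 ± 1870 in control + vehicle, at 9.81 ± 6.39 in control + A83-01 and at 9.91 ± 10.1 in *Smad2/3* cKO organoids.

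Some libraries stood apart. *Smad2/3* cKO replicate 2 had 3372 normalized counts of *Lyz2* and 351 of *Adgre1*, both markers of macrophages, whereas the other replicates of that group reached at most 86.9 and 7.76. *Smad2/3* cKO + A83-01 replicate 2 had the highest *Smad2* (1211, against 804 to 854) and the lowest *Smad3* (797, against 1648 to 1689) of its group. The labels gave 1 mouse number to samples of both genotypes. The values of *Otop1*, *Nlrp6* and *Ncald* without *Smad2/3* cKO replicate 2 stand beside their results, and the calls of other genes that were lost without it are named with those genes.

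*Otop1* was low in both control groups and about 10 times as high after deletion of *Smad2* and *Smad3*. It was at 42.6, 29.2 and 81.0 normalized counts in the control + vehicle samples (50.9 ± 26.9, SD, n = 3). The control + A83-01 samples had 69.9, 57.1, 77.4 and 59.2 (65.9 ± 9.47, n = 4). *Smad2/3* cKO organoids had 233, 721, 778 and 271 (501 ± 288, n = 4). With A83-01 as well, the values were 573, 644, 671 and 380 (567 ± 131, n = 4). Every sample with deleted *Smad2* and *Smad3* was above every control sample, the control groups overlapped, and so did the *Smad2/3* cKO groups. In part this separation lies in the comparison that chose the gene. For 14.8% of genes tested, every *Smad2/3* cKO sample was above every control + vehicle sample. With A83-01 in both genotypes that share was 3.38%. The share of genes with all 4 groups so ordered was not counted.

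*Nlrp6* had the same order of groups. In control + vehicle it was at 186, 39.9 and 170 normalized counts (132 ± 80.1, n = 3). Under A83-01 the control samples had 116, 255, 341 and 162 (219 ± 100, n = 4). The *Smad2/3* cKO samples had 568, 2191, 1859 and 858 (1369 ± 778, n = 4). Those grown with A83-01 had 1566, 1567, 1700 and 1415 (1562 ± 116, n = 4). The lowest *Smad2/3* cKO sample, replicate 1, was still above the highest control sample, and again the samples of each genotype overlapped across treatments. The limits given for *Otop1* on such a separation apply here as well. The spread was wide in *Smad2/3* cKO and narrow in *Smad2/3* cKO + A83-01 organoids.

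*Ncald* differed from the other 2 genes in the control organoids, where its groups did not overlap. It was at 162, 120 and 122 normalized counts in control + vehicle (134.5 ± 23.9, n = 3). The control + A83-01 samples had 528, 502, 633 and 653 (579 ± 75.2, n = 4). The *Smad2/3* cKO samples were at 1210, 1859, 1700 and 1328 (1524 ± 306, n = 4). *Smad2/3* cKO + A83-01 samples were at 2631, 2521, 2398 and 1750 (2325 ± 394.8, n = 4). Its levels thus stood in 3 ranges without overlap, with the *Smad2/3* cKO groups sharing the highest one. These ranges too include the groups that chose the gene.

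**Figure D1:**
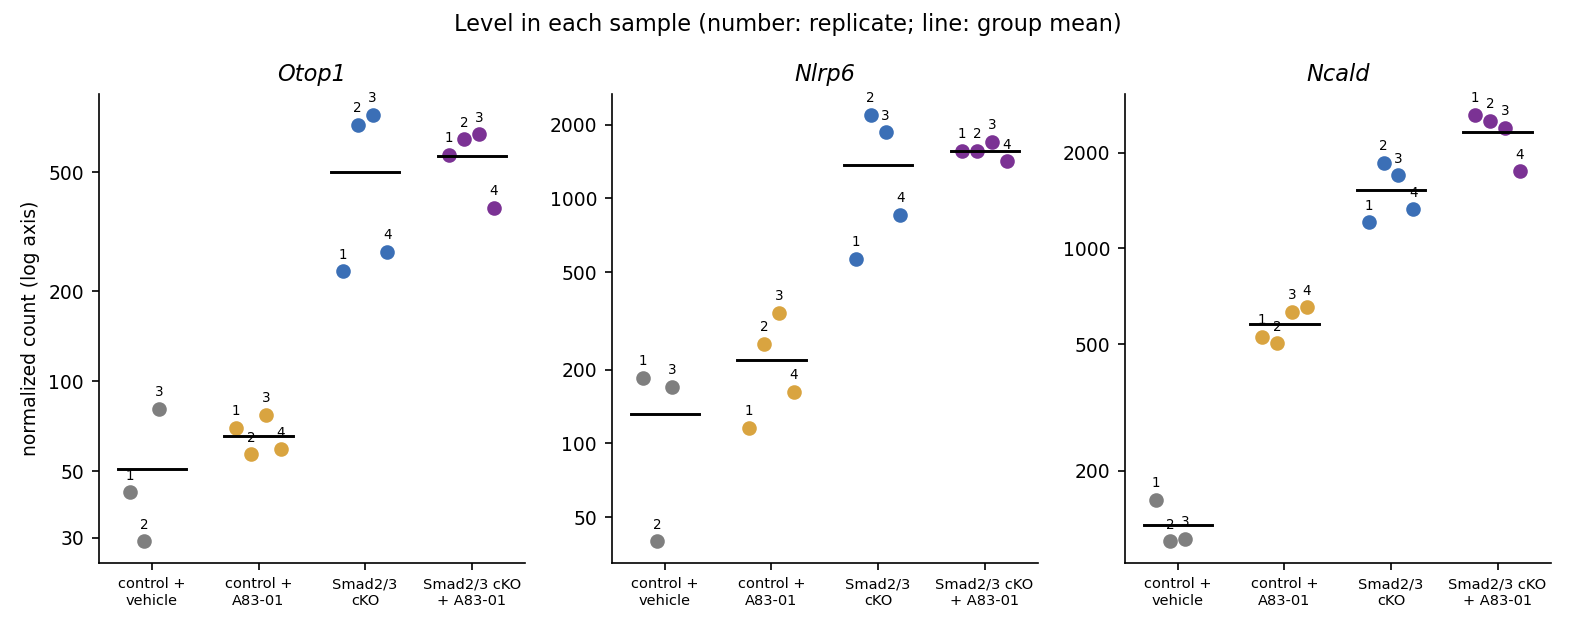
Normalized count of *Otop1*, *Nlrp6* and *Ncald* in each of the 15 samples on a log axis; points are samples labelled with their replicate number and lines are group means. For *Otop1* and *Nlrp6* both control groups lie together at the bottom, whereas for *Ncald* control + A83-01 (502 to 653) lies between control + vehicle (120 to 162) and *Smad2/3* cKO (1210 to 1859).

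The effect of genotype without inhibitor was tested in *Smad2/3* cKO against control + vehicle organoids, which share no sample with the comparison that chose the genes, although 3 mouse numbers of the control groups and 1 of the *Smad2/3* cKO groups stand in the labels of both. All 3 genes rose past the thresholds, a limma adjusted p below 0.01 with a fold above 1.4 or below its inverse, as did 536 of the 13149 genes tested (4.08%), while 434 fell. *Otop1*, the proton channel, was 9.84 times as high by the ratio of means, with a log2 difference of 3.19 (SE 0.52, 95% confidence interval 2.02 to 4.37, adjusted p = 0.00418). *Nlrp6* was 10.4 times as high, with a log2 difference of 3.44 (SE 0.62, interval 2.05 to 4.83, adjusted p = 0.00607). *Ncald* was 11.3 times as high, with a log2 difference of 3.48 (SE 0.21, interval 3.02 to 3.95, adjusted p = 5.99e-05). The rises were thus of like size, but the interval of *Ncald* was the narrowest, and by p-value it was 7th of all genes tested. For all 3 genes the samples of the groups did not overlap, as for 14.8% of the genes tested. In an exact permutation test over samples, two-sided, each gave p = 0.0286, the smallest that 4 samples against 3 allow. By size of the rise the genes ranked 205th (*Otop1*), 172nd (*Nlrp6*) and 169th (*Ncald*) of the genes tested.

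The calls for *Otop1* and *Nlrp6* were close to the threshold. Without *Smad2/3* cKO replicate 2, the library with the macrophage markers, their log2 differences were 2.95 (adjusted p = 0.0108) and 3.15 (adjusted p = 0.0146), whereas that of *Ncald* was 3.38 (adjusted p = 0.000272). Leaving out 1 sample at a time, *Otop1* (log2 difference 2.86 to 3.59) lost its call in 3 of 7 fits, those without control + vehicle replicate 1 or 2 or *Smad2/3* cKO replicate 2. *Nlrp6* (2.73 to 3.83) lost it in 6 of 7, all but the fit without *Smad2/3* cKO replicate 1, and *Ncald* (3.38 to 3.63) in 0 of 7. In the mice with numbers below 390 only, the log2 differences of *Otop1* and *Nlrp6* were 3.50 (adjusted p = 0.0217) and 3.68 (adjusted p = 0.0525).

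Control + A83-01 and control + vehicle organoids had the same genotype, and 3 mouse numbers stand in both groups while the fourth A83-01 sample came from another mouse. The control + A83-01 samples were used to choose the genes, so the values of the 3 genes are given here as a description without a test. *Ncald* was 4.30 times as high with A83-01 by the ratio of means, a log2 difference of 2.10, and its groups did not overlap. *Nlrp6* was 1.66 times as high (log2 difference 0.89) and *Otop1* 1.29 times (0.48), and for both the groups overlapped. Of the 13009 genes tested in this comparison, 155 rose past the thresholds (1.19%) and 140 fell, and for 10.3% every sample with A83-01 was above every vehicle sample. These shares come from a fit without pairing. With the mouse number as a block, which pairs the 3 mice in both groups, the 295 genes past the thresholds in either direction became 978, and without 1 sample at a time they ran from 49 (without control + vehicle replicate 2) to 312. Beside control + A83-01, *Smad2/3* cKO organoids without inhibitor had 7.60 times as much *Otop1*, 6.26 times as much *Nlrp6* and 2.63 times as much *Ncald*.

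A83-01 in *Smad2/3* cKO organoids went with smaller differences, which are a description as well because the *Smad2/3* cKO + A83-01 samples were used to choose the genes. *Ncald* was 1.53 times as high with the inhibitor (log2 difference 0.61), *Nlrp6* 1.14 times (0.39) and *Otop1* 1.13 times (0.35). For *Nlrp6* and *Otop1* the order against control organoids turned in some fits without 1 sample. Without control + vehicle replicate 2 their differences with A83-01 in control organoids were 0.18 and 0.15. The groups overlapped for all 3 genes. Without *Smad2/3* cKO replicate 2 the log2 differences were 0.72, 0.69 and 0.59 in the same order. Over all fits without 1 sample they ran from 0.51 to 0.74 for *Ncald*, from 0.04 to 0.69 for *Nlrp6* and from 0.05 to 0.63 for *Otop1*, each lowest without *Smad2/3* cKO replicate 1. None of the 12998 genes tested passed the thresholds with limma (0%), 554 had an unadjusted p below 0.05, and for 1.88% the samples with inhibitor were all higher.

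In the comparison that chose the genes, *Smad2/3* cKO + A83-01 against control + A83-01, the log2 differences were 3.06 for *Otop1*, 2.95 for *Nlrp6* and 2.00 for *Ncald*, and the ratios of means were 8.61, 7.14 and 4.02. The 3 genes were all that passed of 12915 tested (0.0232%), and the samples of the groups did not overlap for them, as for 3.38% of the genes tested. In most fits that left out 1 sample no gene passed. They were not the genes with the largest differences, ranking 49th, 59th and 155th by rise. Just outside the thresholds stood *Lpo*, lactoperoxidase, at 7927 ± 1606 against 2304 ± 465 (log2 difference 1.78), *Klk1b1*, a kallikrein of a family of near-identical genes whose reads can be split among copies, at 75.9 ± 29.2 against 6.42 ± 3.39 (3.41), and *Bcl2l15*, a BCL2 family gene, at 147 ± 82.8 against 1152 ± 504 (-3.04). Without and with A83-01 the genotype difference of *Ncald* was 3.48 and 2.00. For *Otop1* it was 3.19 and 3.06 and for *Nlrp6* 3.44 and 2.95, and for these 2 genes the order turned in some fits without 1 sample. Without control + vehicle replicate 2 the differences without inhibitor were 2.86 and 2.73, and for *Otop1* the order also turned without *Smad2/3* cKO replicate 2 (2.95 without inhibitor) or 3 (2.91) and without *Smad2/3* cKO + A83-01 replicate 4 (3.24 with inhibitor). The change of the genotype difference with A83-01 was not tested, because it rests in part on the values that chose the genes.

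**Figure D2:**
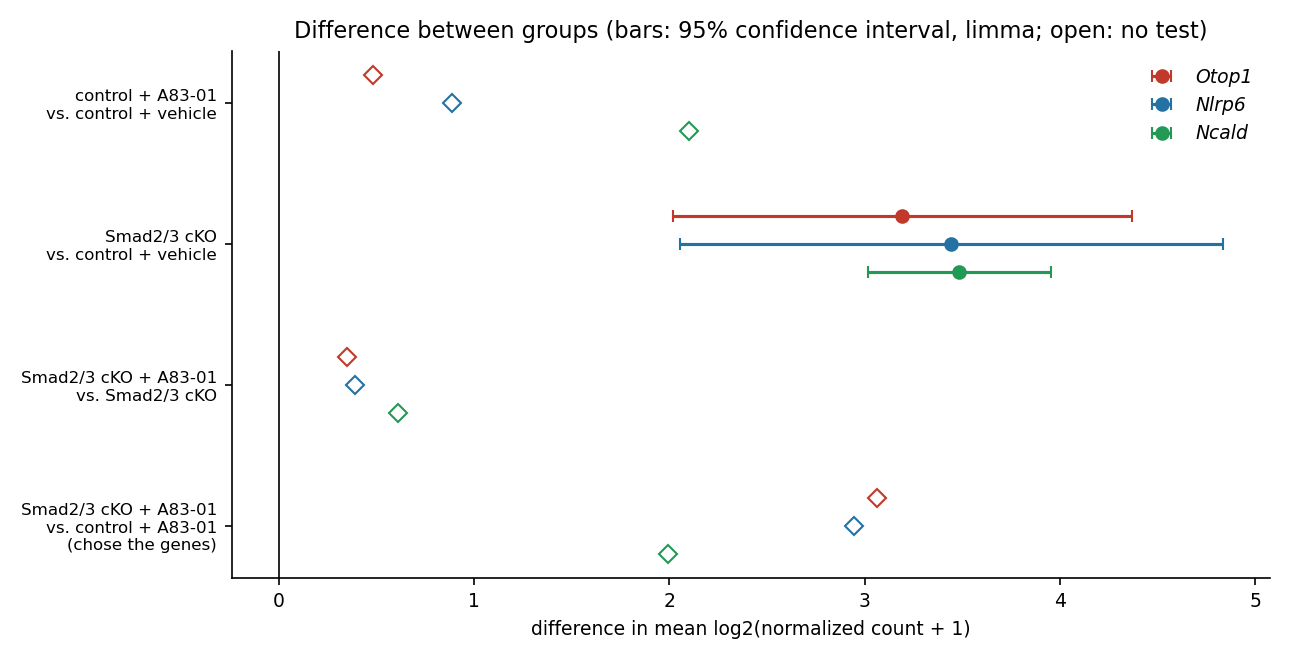
Difference in mean log2(normalized count + 1) between groups for each gene; bars are 95% confidence intervals from limma, and open diamonds are comparisons that use samples by which the genes were chosen and carry no interval. The intervals of all 3 genes lie above 2 for genotype without inhibitor, and with A83-01 in control organoids *Ncald* (2.10) lies farther from 0 than *Otop1* (0.48) and *Nlrp6* (0.89).

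Known SMAD2/3 targets were listed as a check of the groups, and most of them were lower with the inhibitor and with the deletion. Of the 10 genes, 4 fell past the thresholds with A83-01 in control organoids (*Ccn2*, *Fn1*, *Pmepa1* and *Smad7*, of 9 tested) and 4 in *Smad2/3* cKO against control + vehicle organoids (*Ccn2*, *Fn1*, *Pmepa1* and *Smurf1*, of 10 tested), and none rose. Over all genes tested 1.08% fell with A83-01 and 3.3% with the deletion. When 1 sample was left out at a time, *Fn1* kept its call in all 7 fits of both comparisons, and each of the other calls was lost in at most 3 of 7. *Ccn2*, a matricellular growth factor, went from 18568 ± 6820 in control + vehicle to 2713 ± 537 with A83-01 and 2568 ± 1421 in *Smad2/3* cKO organoids. *Pmepa1*, an inhibitor of TGFβ signaling, went from 1017 ± 272 to 46.5 ± 14.3 and 72.7 ± 72.9. *Smad7*, the inhibitory SMAD, went from 218 ± 45.1 to 15.1 ± 4.01 and 44.1 ± 36.3. It passed the thresholds with A83-01 (log2 difference -3.79, adjusted p = 0.00132) but not with the deletion (-2.67, adjusted p = 0.0196), and the difference between these was not tested. *Tgfbi*, a matrix protein gene named for its induction by TGFβ, differed from the rest of the list. It had low means of 3.81 ± 4.25 in control + vehicle and 9.66 ± 7.90 in control + A83-01, and 43.0 ± 21.6 in *Smad2/3* cKO and 68.3 ± 58.8 in *Smad2/3* cKO + A83-01 organoids. Its genotype difference without inhibitor did not pass the thresholds (3.41, adjusted p = 0.0136), and its samples with deleted *Smad2* and *Smad3* were all above the control samples.

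**Figure D3:**
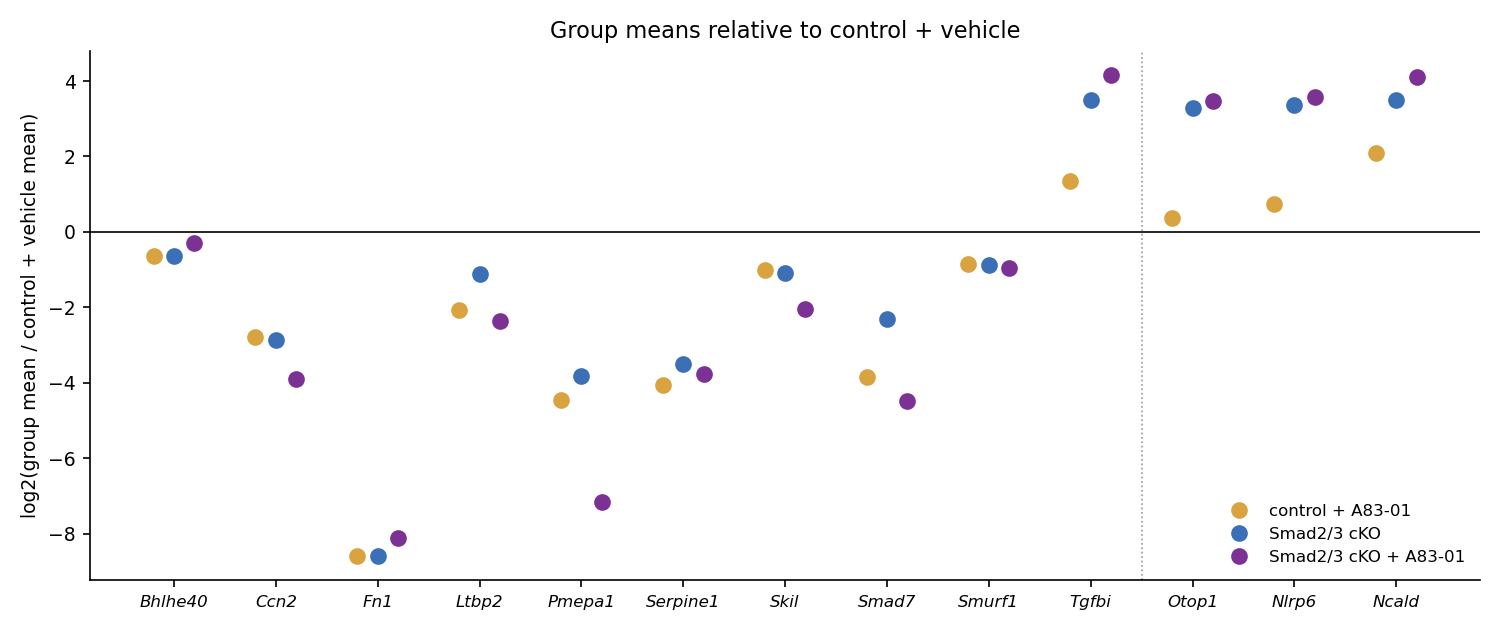
Group means relative to control + vehicle on a log2 scale for the 10 SMAD2/3 targets of the list (left of the dotted line) and for *Otop1*, *Nlrp6* and *Ncald* (right); points are groups. All 3 points lie below 0 for each target but *Tgfbi*, and *Tgfbi* lies above 0 with its control + A83-01 point far below its *Smad2/3* cKO point, as for *Otop1* and *Nlrp6*.

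In each of the 4 *Smad2/3* cKO and 4 *Smad2/3* cKO + A83-01 samples the 3 genes deviated from their group means on the same side, which held in 2 of the 7 control samples. The deviation of *Nlrp6* was only 0.007 in *Smad2/3* cKO + A83-01 replicates 1 and 2, so its side there is close to arbitrary. Deviations within a group are not independent, and no such count was made for other genes. In *Smad2/3* cKO organoids replicates 1 and 4 were below and replicates 2 and 3 above the group mean for each of them, on the log2 scale. Over the 15 samples with group means removed, Pearson's r was 0.744 for *Otop1* and *Nlrp6*, 0.616 for *Otop1* and *Ncald* and 0.588 for *Nlrp6* and *Ncald*. With group means kept it was 0.962, 0.892 and 0.898. These are descriptions over libraries that share a size factor for all genes.

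**Figure D4:**
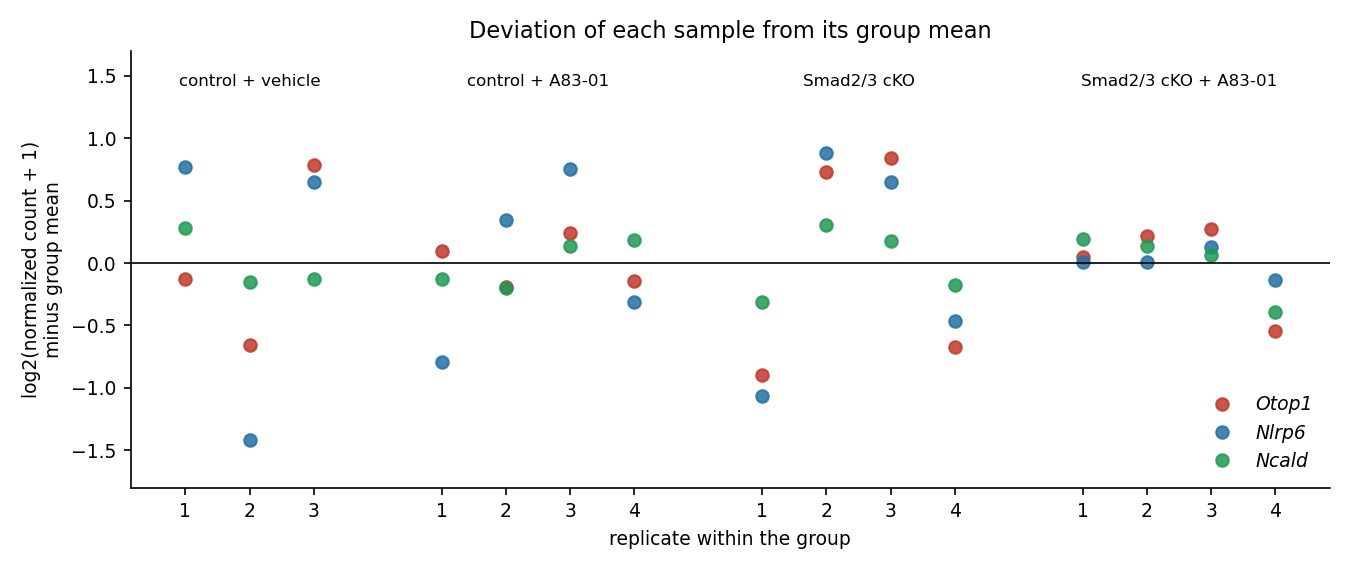
Deviation of each sample's log2(normalized count + 1) from its group mean, by replicate, for *Otop1*, *Nlrp6* and *Ncald*. In the *Smad2/3* cKO group replicates 1 and 4 lie below 0 and replicates 2 and 3 above it for all 3 genes, and *Ncald* lies nearest to 0 in each of these replicates.

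The genes most like each member were ranked by Pearson's r over the 15 samples on the log2 scale, among 13066 genes with a mean of at least 10. For *Otop1* these were *Nlrp6* (0.962), *Lpo* (0.944), the complement regulator *C4bp* (0.936), the TGFβ pseudoreceptor *Bambi* (0.922) and *Wfdc18* (0.915). For *Nlrp6* they were *Otop1* (0.962), *C4bp* (0.923), *Wfdc18* (0.914), *Syt6* (0.913) and *Skint8* (0.911). *Otop1* and *Nlrp6* were each first in the other's ranking, which includes the differences between the groups by which they were chosen. With group means removed, *Otop1* had a higher r with *C4bp* (0.872) and *Lpo* (0.849) than with *Nlrp6* (0.744). Those most like *Ncald* were others, the dopamine receptor gene *Drd1* (0.970), the kininogen gene *Kng2* (0.967), *Pcca* (0.967), the serine protease gene *Tmprss11a* (0.965) and *4833439L19Rik* (0.962). With group means removed their r with *Ncald* was lower, at 0.395, 0.451, 0.101, 0.637 and 0.38 in the same order. *Kng2* had means of 121, 1078, 2783 and 4379 in the 4 groups, in the order control + vehicle, control + A83-01, then *Smad2/3* cKO without and with A83-01, the same stepwise order as *Ncald*. *C4bp*, by contrast, was at 50.6, 93.0, 1282 and 718. In the ranking for *Ncald*, *Nlrp6* was 137th and *Otop1* 159th.

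In *Smad2/3* cKO against control + vehicle organoids 7.38% of all genes tested passed the thresholds in either direction, and the counts of each family below stand beside that share. Among otopetrins and genes of acid-base transport, 17 of 24 were tested, *Otop2* and *Otop3* not among them, and 2 rose and 3 fell. Besides *Otop1*, *Atp6v0a4*, a subunit of the vacuolar proton pump, rose from 265 ± 131 to 1020 ± 310 (log2 difference 2.04, adjusted p = 0.00607). The chloride and bicarbonate channel gene *Cftr* fell from 1615 ± 292 to 129 ± 94.7 (-4.01, adjusted p = 0.00361), the borate and proton transporter gene *Slc4a11* from 4006 ± 814 to 771 ± 165 (-2.38, adjusted p = 0.000304) and the sodium bicarbonate cotransporter gene *Slc4a4* from 1134 ± 241 to 389 ± 145 (-1.59, adjusted p = 0.0067). With A83-01 in control organoids *Slc4a11* passed as well, at 1222 ± 163 (-1.70, adjusted p = 0.0017), whereas *Cftr*, at 113 ± 142 (-4.87, adjusted p = 0.0225), did not. The median log2 difference of the 16 genes other than *Otop1* was 0.08, against 0.002 over all genes. Without *Smad2/3* cKO replicate 2, the calls of *Atp6v0a4* (log2 difference 2.12, adjusted p = 0.0118) and *Slc4a4* (-1.62, adjusted p = 0.0147) were lost. Over the 7 fits that each left out 1 sample, whether control or *Smad2/3* cKO, the calls of *Atp6v0a4* and *Slc4a4* were lost in 6 each, that of *Cftr* in 4 and that of *Slc4a11* in 0. Of 13 listed genes of taste cells and the inner ear, not all from the cells that have *Otop1*, 3 were tested. *Pkd2l1*, a channel gene of sour taste cells, fell from 57.7 ± 14.4 to 3.05 ± 1.64 (-3.94, adjusted p = 0.00369, lost in 3 of 7 such fits). The other 2 did not pass, the taste receptor gene *Tas1r3* with a log2 difference of 0.48 (adjusted p = 0.708) and the inner ear gene *Tecta* with 1.33 (adjusted p = 0.558), and the median of the 3 was 0.483.

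*Nlrp6* was the only 1 of 11 tested NOD-like receptor genes past the thresholds by genotype without inhibitor, and the median log2 difference of the other 10 was -0.394. *Naip1*, a sensor of bacterial secretion systems, was at 2636 without and 1168 with the deletion (-1.26, adjusted p = 0.0165). *Nlrp3*, a sensor of many danger signals, was listed at means of 0.943 to 3.88 over the groups. Of 18 tested inflammasome partners and products, none rose and 1 fell, the DNA sensor gene *Aim2*, from 97.6 ± 44.9 to 2.28 ± 2.65 (-5.20, adjusted p = 0.00381, lost in 2 of 7 fits without 1 sample), and the median over the 18 was 0.226. RNA of 2 inflammasome partners of *Nlrp6* and of *Il18* was present in all groups without a call. Whether inflammasomes formed was not tested. *Pycard*, which encodes ASC, was at 254 ± 145 without and 284 ± 130 with the deletion, *Casp1* at 361 ± 55.7 and 448 ± 95.3, and *Il18*, a cytokine cut by caspase-1, at 60.5 ± 17.6 and 55.0 ± 20.4.

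In the neuronal calcium sensor family 6 of 13 genes were tested by genotype without inhibitor, *Ncald* rose and *Ncs1*, neuronal calcium sensor 1, fell. *Ncs1* went from 630 ± 79.6 to 140 ± 77.0 (-2.34, adjusted p = 0.00692), and with A83-01 in control organoids to 178 ± 32.6 (-1.83, adjusted p = 0.00264). *Hpcal1*, hippocalcin-like 1, was at 1665 ± 453 and 1360 ± 193 without a call. The median log2 difference of the 5 genes other than *Ncald* was -0.269. Among 22 other tested EF-hand calcium sensors, 2 rose and none fell. *Efhd1*, a mitochondrial calcium sensor, went from 249 ± 105 to 1135 ± 488 (2.16, adjusted p = 0.00437). *Calml3*, calmodulin-like 3, went from 0.634 ± 1.10 to 105 ± 92.1 (5.61, adjusted p = 0.0047), a difference that depends on the value of 1 added before taking logs. Leaving out 1 sample at a time, the call was lost in 5 of 7 fits for *Calml3*, 3 of 7 for *Efhd1* and 4 of 7 for *Ncs1*. The median over the 22 was -0.137.

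**Figure D5:**
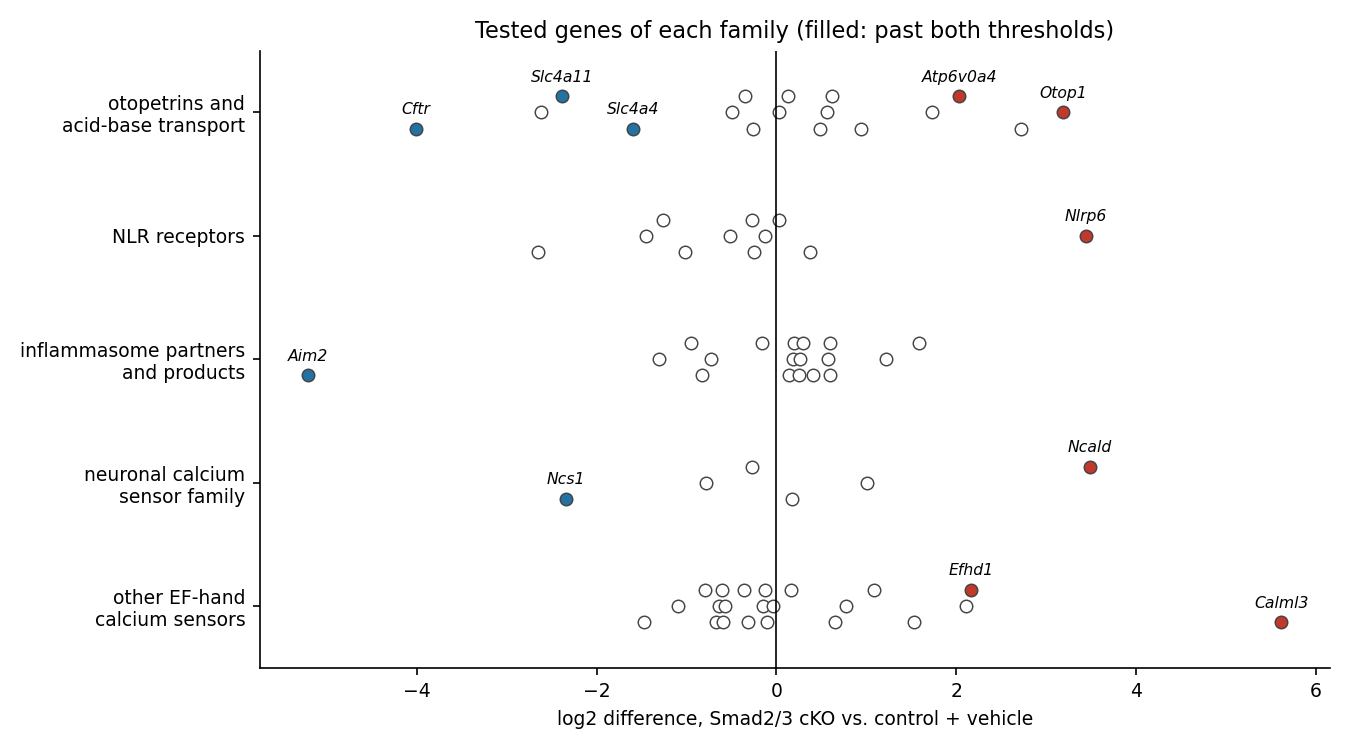
Log2 difference between *Smad2/3* cKO and control + vehicle organoids for the tested genes of 5 lists, 1 point per gene and 1 row per list; filled points passed the thresholds (red rose, blue fell) and are named. *Nlrp6* is the only filled point among NOD-like receptors, and *Ncald* and *Ncs1* lie on opposite sides of 0.

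Genes next to the 3 on the chromosome did not pass the thresholds. The 18 nearest genes with a row were listed, 3 per side of each gene. They include *Gm8668*, which overlaps *Ncald* rather than lying beside it and was not tested. Of the 18, 12 were tested by genotype without inhibitor, and their log2 differences ran from -0.61 to 0.79. The nearest tested neighbour of *Otop1*, *Tmem128*, had a log2 difference of 0.32 (adjusted p = 0.163). Those next to *Nlrp6* included *Sirt3*, a mitochondrial deacetylase, at 0.79 (adjusted p = 0.047), and *Pgghg* at -0.15 (adjusted p = 0.516). Beside *Ncald* stood *Rrm2b*, a subunit of ribonucleotide reductase, at 0.01 (adjusted p = 0.984), and *Grhl2*, an epithelial transcription factor, at -0.27 (adjusted p = 0.22).

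Of the cell type markers, 3 passed the thresholds by genotype without inhibitor, *Cldn4*, *Acta2* and *Ptprc*. In bulk RNA, fewer cells of a type and less RNA per cell cannot be told apart. The 8 epithelial markers summed to 181130 ± 21694 in control + vehicle, 147340 ± 28641 in control + A83-01, 104480 ± 24734 in *Smad2/3* cKO and 112790 ± 16890 in *Smad2/3* cKO + A83-01 organoids. The tight junction gene *Cldn4* was the 1 of these 8 that passed, and fell from 4618 ± 1779 to 826 ± 441 (-2.55, adjusted p = 0.00455, and adjusted p = 0.0104 without *Smad2/3* cKO replicate 2), a call lost in 4 of 7 fits without 1 sample. The smooth muscle actin gene *Acta2* fell from 110.01 ± 61.6 to 11.8 ± 6.83 (-3.12, adjusted p = 0.00841), a call lost in 6 of 7 fits that left out 1 sample. It was at 18.6 ± 8.29 in control + A83-01 and 17.1 ± 18.0 in *Smad2/3* cKO + A83-01 organoids. Of the 4 smooth muscle markers with a row, *Acta2* was the most abundant in control + vehicle and *Tagln* in the other groups. *Tagln* had no call, at 25.7 ± 6.38, 20.8 ± 12.35, 35.5 ± 8.85 and 29.8 ± 10.9 in the order of groups above. Smooth muscle markers summed to 146 ± 72.7, 42.7 ± 11.9, 48.6 ± 10.8 and 50.7 ± 24.6 in the order of groups above. The leukocyte list held 6 of 7 genes with a row and summed to 2143 ± 810, 5845 ± 2239, 5236 ± 2495 and 5910 ± 1657 in the same order of groups, with 4274 ± 1945 (n = 3) for *Smad2/3* cKO without replicate 2. Its most abundant gene was *Cd68*, a lysosomal gene of macrophages, at 1857 ± 649, 5330 ± 2097, 3563 ± 1457 and 5248 ± 1619. *Ptprc*, the pan-leukocyte gene CD45, was at 22.8 ± 13.8, 168 ± 80.6, 225 ± 77.4 and 265 ± 177 and rose past the thresholds by genotype without inhibitor (3.33, adjusted p = 0.00228, lost in 2 of 7 fits without 1 sample), the only 1 of 5 tested. *Lyz2* of the same list was lower with A83-01, at 55.4 ± 14.8, 8.09 ± 4.74, 866 ± 1671 and 4.04 ± 3.84, the groups ordered as before. Its *Smad2/3* cKO mean rests on replicate 2 (3372), and replicates 1, 3 and 4 were at 0.94, 86.9 and 4.79. *Csf1r* and *Cd79a*, also of this list, had their lowest means in control + vehicle. *Cd3e*, the T cell gene, had no row. *Adgre1* was at 0 in 1 control + vehicle, 2 control + A83-01, 1 *Smad2/3* cKO and 3 *Smad2/3* cKO + A83-01 samples. Goblet cell markers, with 5 of 6 genes in the table and *Fcgbp* the most abundant, summed to 19279 ± 4020, 7838 ± 6578, 18448 ± 16523 and 11104 ± 6445, without a call among 3 tested. *Smad2/3* cKO replicate 2 alone had 42366, and without it the mean of that group was 10475 ± 5306 (n = 3). *Clca1* was at 423 ± 65.4 without and 91.7 ± 61.6 with the deletion, both without inhibitor (-2.56, adjusted p = 0.0251). *Muc2*, the secreted mucin, was at 0 in all control + vehicle samples and close to 0 elsewhere. Its means were 2.02 in control + A83-01, 6.59 in *Smad2/3* cKO and 5.12 in *Smad2/3* cKO + A83-01 organoids. It reached at most 12.6 in any sample and was too low to be tested. Ciliated cell markers summed to at most 127 in any sample. What part these cell types have in the levels of *Otop1*, *Nlrp6* and *Ncald* was not tested.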

How the data were processed

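RNA of mouse endometrial organoids was sequenced in pairs of reads after low-input library preparation (SMART-Seq v4). The authors estimated counts per gene with Salmon 1.4.0 on GRCm39 and normalized them with DESeq2 1.32.0. The values they deposited, treated here as signal, are estimated counts divided by 1 size factor per sample, with a median ratio to the geometric mean of 1.01137 in all 15 samples. Only 5.11% to 12.7% of values below 12 lay within 0.01 of a whole number of steps, so whole reads were not recovered and depth in reads is unknown.

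Groups were fitted in pairs on log2(normalized count + 1), using genes that averaged 10 or more, by the functions lmFit and eBayes (trend on) of limma 3.58.1 under R 4.3.3. Differences are on that scale, which understates changes of low genes. P-values were two-sided and adjusted by Benjamini-Hochberg over all genes tested. The thresholds were an adjusted p below 0.01 and a fold above 1.4 or below its inverse. For the 3 members only *Smad2/3* cKO against control + vehicle was tested, since every other comparison uses samples by which they were chosen. The planned tests of the members for A83-01 in either genotype are therefore not reported. The tests were checked on simulated data. Of the 16729 genes, 16697 matched a symbol. Positions and neighbours are those of GRCm38 (GENCODE), not of the build used for alignment, and promoters are from RefSeq.

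The members and lists were chosen with earlier results of these data known. Besides the 3 members, the genes named were *Smad2* and *Smad3*, list genes past the thresholds, up to 4 of highest mean per list, the 5 genes most like each member and the 3 nearest on each side. *Pycard*, *Casp1*, *Il18*, *Nlrp3*, *Gsdmd*, *Adgre1*, *Cd79a*, *Muc2*, *Cd3e*, *Pax8*, *Tgfbi*, *Otop2* and *Otop3* were named outside this rule, as were *Lpo*, *Klk1b1* and *Bcl2l15* beside the thresholds.

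Replicate numbers pair the samples of the control groups, where replicates 1 to 3 carry the same mouse numbers and their deviations from the group means correlate at 0.354 to 0.423. In the other comparisons they share only a replicate number, apart from mouse number 367 on replicate 1 of *Smad2/3* cKO and control + vehicle. Mouse number 369 labels *Smad2/3* cKO replicate 2 and *Smad2/3* cKO + A83-01 replicate 1, whose deviations correlate at 0.355. The alternatives were other pseudocounts, filters, normalizations, fits, blocks and thresholds, and leaving out each sample. Each sample is from 1 mouse per the labels, and 1 mouse number is given for both genotypes.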

Additional observations from a re-analysis of the deposited data

Results flagged for a closer look

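Within the 3 groups of 4 samples, the most distant sample of each of 68 chosen genes was compared with the range of its group. The measure was Dixon's ratio, the gap to the nearest other sample over the whole range. Of 204 such sets for 68 genes, 11 had a ratio above the 95% critical value of 0.829, which chance gives in about 1 of 20 sets. None was for *Otop1*, *Nlrp6* or *Ncald*. In *Smad2/3* cKO replicate 2, *Lyz2* stood at 3372 against 0.94 to 86.9 (ratio 0.975) and *Adgre1* at 351 against 0 to 7.76 (0.978). In *Smad2/3* cKO + A83-01 replicate 2, *Smad2* stood at 1211 against 804 to 854 (0.876), *Smad3* at 797 against 1648 to 1689 (0.954), *Bambi* at 113 against 89.8 to 91.5 (0.928) and *Kng2* at 2496 against 4957 to 5075 (0.954). *Psmd13*, a neighbour of *Nlrp6*, was at 3409 in *Smad2/3* cKO replicate 3 against 2748 to 2844 (0.854). *Gsdmd* was at 354 in control + A83-01 replicate 3 against 286 to 294 (0.877). Low values made up the rest, with *Lyz2* at 15.1 in control + A83-01 replicate 1 against 5.24 to 6.57 (0.866), *Adgre1* at 9.01 in the same sample against 0 to 0.969 (0.892) and *Adgre1* at 1.08 in *Smad2/3* cKO + A83-01 replicate 1 against 0 in the others (1.0).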

How the results depend on the processing

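In each of the 4 comparisons between groups, the difference of *Otop1*, *Nlrp6* and *Ncald* kept its sign under the alternatives run for it, and A83-01 in *Smad2/3* cKO organoids gave 0 genes past the thresholds in all 12 alternatives and in all 8 fits without 1 sample. The depth in reads is unknown. Causes of the changes below were not tested.

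For *Smad2/3* cKO against control + vehicle, the call of *Ncald* held in every alternative. *Otop1* lost its call without the eBayes trend (log2 difference 3.19, adjusted p = 0.0148), with the replicate block (3.42, adjusted p = 0.0122) and in mice numbered below 390 (3.50). *Nlrp6* lost it with no filter on low values (3.44, adjusted p = 0.0118), without the eBayes trend (3.44, adjusted p = 0.0214), with the replicate block (3.60, adjusted p = 0.0345) and in mice numbered below 390 (3.68). The number of genes past the thresholds, 970, became 452 without the trend, 211 with the block, 255 below 390 and 2410 at an adjusted p below 0.05. Without 1 sample at a time it ran from 280 (without control + vehicle replicate 1) to 992 (without *Smad2/3* cKO replicate 3), with *Otop1* at 2.86 to 3.59 and *Nlrp6* at 2.73 to 3.83. The mean r between same-numbered samples of this comparison was 0.056. Why the calls were lost with the block was not tested. Of 16 list genes called here other than the 3, *Fn1* and *Slc4a11* kept their calls in every fit, 14 lost them in at least 1, and none changed sign.

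For A83-01 in control organoids, 295 genes became 146 with no filter, 655 with all 4 groups in 1 fit, 978 with the mouse number block, 399 with the replicate block, 38 in mice numbered below 390 and 955 at an adjusted p below 0.05. The log2 difference of *Ncald* was 1.88 in mice numbered below 390. The count ran from 49 (without control + vehicle replicate 2) to 312. Of 7 list genes called here, *Fn1* and *Pmepa1* kept their calls in every fit and 5 lost them in at least 1, *Ncs1* in 3 of 7 fits without 1 sample and *Calml3* in 6 of 7. Without 1 sample at a time the log2 differences were 2.03 to 2.24 for *Ncald*, 0.15 to 0.87 for *Otop1* and 0.18 to 1.27 for *Nlrp6*, both lowest without control + vehicle replicate 2.

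In the comparison that chose the genes, the 3 calls became 0 with no filter and with the replicate block, 1 without the trend, 5 with all 4 groups in 1 fit (2 of them members) and 39 in mice numbered below 390 (3 of them members). Without 1 sample at a time the count ran from 0 to 4. It was 0 without control + A83-01 replicate 2 or 4 and without *Smad2/3* cKO + A83-01 replicate 1, 2 or 3. The log2 differences of *Otop1*, *Nlrp6* and *Ncald* stayed within 2.90 to 3.24, 2.68 to 3.20 and 1.93 to 2.16. The mouse number block could not be estimated for the other comparisons, which share at most 1 number.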

Other observations

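Among the genes most like *Otop1* and *Nlrp6*, *Lpo*, the secreted peroxidase lactoperoxidase, had means of 1937, 2304, 6854 and 7927 normalized counts in the 4 groups, in the order control + vehicle, control + A83-01, then *Smad2/3* cKO without and with A83-01. The other values follow this order. *Wfdc18*, a gene of the whey acidic protein family, had 55.7, 89.0, 1200 and 1432. *Syt6*, a synaptotagmin, had 56.3, 66.2, 218 and 234. Among those most like *Ncald*, *Tmprss11a*, an epithelial serine protease, had 4.87, 123, 878 and 1041, and *Pcca*, a subunit of propionyl-CoA carboxylase, had 1029, 2396, 3293 and 4077. *Drd1*, a dopamine receptor, had 0, 5.12, 35.7 and 47.6. These genes were chosen for their likeness over the same samples, and no test was made of them.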
